A study of Mus musculus with 4 samples.

Results

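The B and T lymphocytes of mouse pancreatic islets are described here in 4 single-cell RNA-seq libraries. The cells were chosen by measured RNA. Of 22218 cell barcodes, 15416 had under 10% mitochondrial UMIs (unique molecular identifiers, one for each RNA molecule counted), 1000 to 50000 UMIs and 500 or more genes. Of these, a lymphocyte had under 5% of its UMIs from the insulin genes Ins1 and Ins2, no UMI of C1qa and C1qb, the complement genes of islet macrophages, and UMIs of at least 2 of 3 marker genes. The markers were Cd79a, Cd79b and Ms4a1 for B cells and Cd3d, Cd3e and Cd3g for T cells. The rule found 223 B cells and 390 T cells, 613 in all, and 1 cell of WT HFD that met both rules and was kept apart. Because marker RNA chose the cells, the marker levels, the differences between B and T cells and the genes that lead each class are given as descriptions.

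The mice were male, of C57BL6/N background, and either wildtype littermates (WT) or homozygous for a Pax4 R200H knock-in that corresponds to the human R192H variant (HH). Pax4 is a transcription factor of endocrine pancreas development. WT SCD and HH SCD were taken at 12 weeks of age on standard chow (SCD), and WT HFD and HH HFD at 16 weeks after 4 weeks of high-fat diet (HFD). Each group was 1 library made from the pooled, trypsin-digested islets of 2 to 3 mice, so genotype and library cannot be told apart, nor can diet and age. There is therefore no replicate spread and no test; the intervals are exact 95% intervals that cover counting error only.

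B cells recognise antigen through a membrane immunoglobulin that signals through CD79A and CD79B, and they present peptides on MHC class II. On activation they can pass through a germinal centre, where they divide and edit their immunoglobulin genes, or become plasma cells that secrete antibody. T cells recognise peptides through a receptor that signals through CD3, as CD8+ cells on MHC class I or as CD4+ cells on MHC class II. Naive B and T cells circulate through lymph nodes, whereas islets of a healthy mouse hold few lymphocytes and a resident macrophage population.

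The marker genes gave a clear picture of each class. Cd79a, the first signalling chain of the B cell receptor, had a median of 8 UMIs in a B cell of HH SCD, 11 in WT HFD and 11 for HH HFD. Cd3g, a CD3 chain, had a median of 3, 4 and 3 UMIs in the T cells of the same libraries. Of 16 B cell identity genes that the rule did not use, such as Pax5, Cd22 and Bank1, all 16 were higher in B than in T cells in each of the 3 libraries with both classes. Likewise 16 of 16 T cell identity genes, such as Lck, Zap70 and Bcl11b, were higher in T cells in all 3 libraries. Ranked by the smallest of the log2 ratios to all other cells in these 3 libraries, with 3 counts in place of 0, the first 10 genes for B cells were Gm30211, Pax5, Bfsp2, Tnfrsf13c, Ms4a1, Bank1, Gm31243, Iglc2, Igkc and Ighd. For T cells they were Themis, Sh2d1a, Cd3e, Cd8b1, Gm2682, Ubash3a, Art2b, Cd3d, Zap70 and Ifi208, although Ifi208 had no UMI in the T cells of HH SCD. Defining genes of acinar cells, macrophages and neutrophils were at or near 0 in the members. The 7 acinar genes had 1 UMI in the B cells and 15 in the T cells of WT HFD and none elsewhere, the 7 macrophage genes, of which the rule itself required C1qa and C1qb to be at 0, at most 7 UMIs in a class of a library, and the 3 neutrophil genes none. The 4 stromal genes had 121 UMIs in the T cells of WT HFD, of which 61 were Dcn UMIs of 1 cell. Endocrine and endothelial genes were present: the 9 endocrine genes gave 25545 to 40006 CPM (UMIs scaled to a class sum of 1000000) in the classes, and the 5 endothelial genes 366 UMIs in the B cells of WT HFD.

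The promoters of 3 genes that define these classes are shown, from 250 bases before the RefSeq gene start to 50 after it (RefSeq table, GRCm38.p6). They are Cd79a (chr7:24897247-24897546, + strand), Cd3e (chr9:45009562-45009861, - strand) and H2-Aa, an MHC class II chain (chr17:34287774-34288073, - strand), each 5' to 3' on the strand of its gene. Capitals mark an E box (CAGGTG, or CACCTG on the other strand) in Cd79a and Cd3e, and the letters TGACGTCA and CTGATTGG, which are known as the X2 and Y boxes of MHC class II promoters, in H2-Aa. The letters were picked after the sequences had been read.
Cd79a: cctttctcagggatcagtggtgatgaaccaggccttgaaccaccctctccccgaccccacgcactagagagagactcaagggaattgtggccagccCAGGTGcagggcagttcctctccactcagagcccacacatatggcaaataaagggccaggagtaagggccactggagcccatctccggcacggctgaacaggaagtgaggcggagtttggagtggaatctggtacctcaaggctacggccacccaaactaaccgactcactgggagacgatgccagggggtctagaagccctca
Cd3e: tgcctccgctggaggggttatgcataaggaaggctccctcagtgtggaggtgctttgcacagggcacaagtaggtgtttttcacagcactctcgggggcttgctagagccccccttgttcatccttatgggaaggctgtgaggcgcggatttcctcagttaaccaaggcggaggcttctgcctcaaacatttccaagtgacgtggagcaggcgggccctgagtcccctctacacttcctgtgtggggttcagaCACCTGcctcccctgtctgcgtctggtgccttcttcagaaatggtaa
H2-Aa: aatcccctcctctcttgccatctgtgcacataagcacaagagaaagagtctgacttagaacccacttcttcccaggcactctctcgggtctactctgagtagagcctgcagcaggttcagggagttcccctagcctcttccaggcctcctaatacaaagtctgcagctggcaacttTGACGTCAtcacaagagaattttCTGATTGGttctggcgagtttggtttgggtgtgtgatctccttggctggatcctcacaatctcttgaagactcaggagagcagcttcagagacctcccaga
The E box began at position -154 in Cd79a and at position 4 in Cd3e, counted from the gene start, and it also stood in the windows of Cd3d, Cd3g and Jchain. On either strand it was present in 20.2% of the 32851 promoters of the table. In H2-Aa the TGACGTCA letters began at -74 and the CTGATTGG letters at -51. TGACGTCA was present in 1.79% of all promoters, and CTGATTGG or its reverse CCAATCAG, which H2-Eb1 also held, in 4.10%. A match describes letters and not a bound site.

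Lymphocyte numbers differed widely between the libraries. No B cell was found among 3521 cells of WT SCD (interval up to 0.105%), against 23 of 3554 in HH SCD (0.647%, interval 0.411 to 0.969). In HFD there were 106 B cells among 2992 cells of WT (3.54%, 2.91 to 4.27) and 94 among 5349 of HH (1.76%, 1.42 to 2.15). T cells numbered 2 in WT SCD (0.0568%, 0.00688 to 0.205) and 47 in HH SCD (1.32%, 0.973 to 1.75), while WT HFD had 316 (10.6%, 9.48 to 11.7) and HH HFD 25 (0.467%, 0.303 to 0.689). By these limits both classes were more frequent in HH than in WT in SCD and less frequent in HFD, as the plot of shares by library shows.

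**Figure D1:**
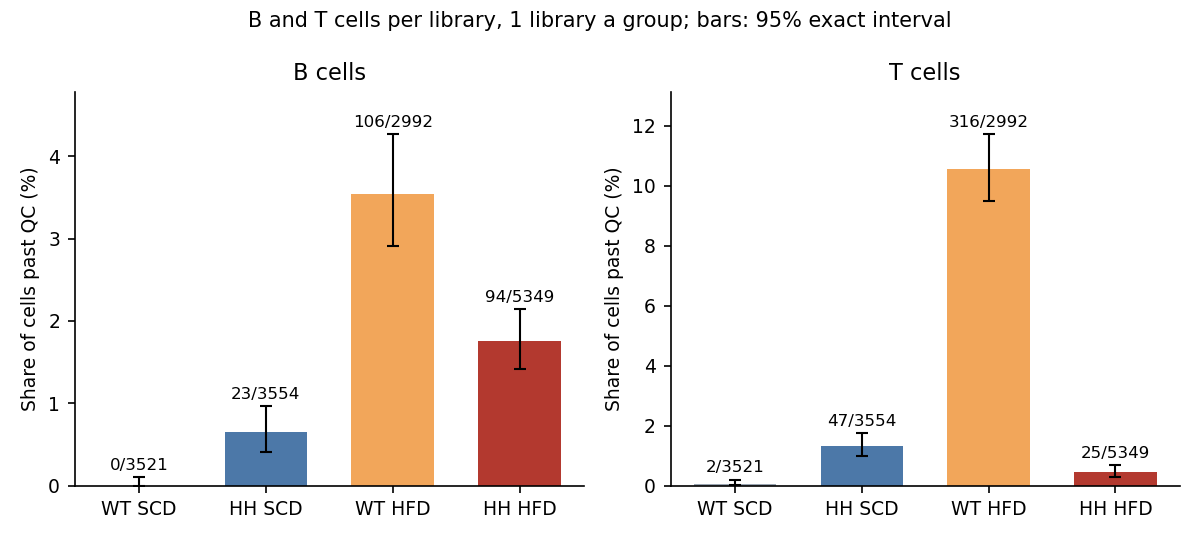
Share of B cells and of T cells among the cells within the mitochondrial, UMI and gene limits, in percent, for the 4 libraries. Bars are 95% exact binomial intervals that cover counting error only. T cells reached 10.6% in WT HFD and were at or under 1.32% in the other 3 libraries, whereas B cells were at 3.54% in WT HFD, 1.76% in HH HFD and under 1% in SCD.

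The difference HH minus WT was 0.647 percentage points for B cells in SCD (0.389 to 0.969) and -1.79 in HFD (-2.59 to -1.04). For T cells it was 1.27 points in SCD (0.886 to 1.70) and -10.1 in HFD (-11.3 to -8.99). The direction of the B cell difference in HFD turned with the limit on insulin UMIs. With under 2% in place of under 5%, 6 B cells of WT and 55 of HH were left, and the difference was 0.828 points (0.482 to 1.16). The study's own limits were 3000 to 50000 UMIs and 2000 to 5000 genes, which its methods join with an "or". With both required, 7 and 26 B cells were left and the difference was 0.248 (-0.169 to 0.592). Where either was enough, 54 and 58 B cells were left and the difference was -0.877 (-1.55 to -0.271). With both required, no B cell was left in either SCD library, among 3173 cells of WT and 3162 of HH, and 0 and 5 T cells were left there, a difference of 0.158 points (0.000333 to 0.369). With either enough, the SCD differences were 0.204 points for B cells (0.0422 to 0.421) and 0.847 for T cells (0.534 to 1.22). Insulin RNA also differed between the libraries: the median insulin share of a B cell was 2.26% in HH SCD, 3.61% in WT HFD and 1.69% for HH HFD. Just inside the limit, at 4% to 5% insulin UMIs, stood 34 B cells of WT HFD and 11 of HH HFD, and just outside it, at 5% to 6%, stood 22 and 2 cells with the B markers. The T cell differences kept their direction under every alternative tried, and in HFD ranged from -1.92 to -21.8 points.

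The mix of classes differed as well. B cells made up 32.9% of the 70 lymphocytes of HH SCD (22.1 to 45.1), 25.1% of 422 in WT HFD (21.0 to 29.5) and 79.0% of 119 in HH HFD (70.6 to 85.9). Against the macrophages of the same library there were 1.31 T cells per macrophage in HH SCD, 4.79 in WT HFD and 0.208 for HH HFD, and 0.0377 in WT SCD. The macrophages themselves stayed between 1.01% and 2.24% of cells.

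Lymphocytes were small cells in UMIs. The median was 2561 to 4200 UMIs in B cells and 2239 to 4744 in T cells, against 24230 to 29921 in cells rich in insulin RNA. Only 33 of 223 B cells (14.8%) and 44 of 390 T cells (11.3%) passed both of the study's limits on UMIs and genes. Summed over cells, B cells gave 64084 UMIs in HH SCD, 360887 in WT HFD, and 618774 for HH HFD. T cells gave 6478 in WT SCD and 188345 in HH SCD, and in the HFD libraries 1636546 in WT and 60871 in HH. The T cell sum of HH HFD was the shallowest of the HFD sums, and its low genes are the least certain.

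By immunoglobulin share and germinal centre genes, the B cells of HH HFD fell into 3 kinds. Of these kinds 1 was seen in the other libraries. In HH SCD, with 23 B cells, 3 counts in place of 0 would be a share of 13.0%, so the lack of the other 2 is not shown there. Immunoglobulin genes gave 35.4% to 79.0% of all UMIs in 10 B cells of HH HFD, and no other B cell of any library passed 5.21%. Outside the mitochondrial, UMI and gene limits, 1 barcode of HH SCD and 1 of WT HFD also had 10% or more. The 10 cells are called secretory here for an immunoglobulin share of 10% or more, a share in which Jchain was counted. A further 22 B cells of HH HFD held at least 2 of 6 germinal centre genes, among them Bcl6, Mef2b, S1pr2, Fas and Rgs13, and are called germinal centre list cells. The remaining 62 cells of HH HFD, and all 106 of WT HFD and 23 of HH SCD, are the other B cells. Both definitions were set after the values had been seen. The plot of immunoglobulin share by cell shows the gap between the secretory cells and the rest, while germinal centre list cells and other B cells had like shares, with medians of 1.55% and 1.81% in HH HFD.

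**Figure D2:**
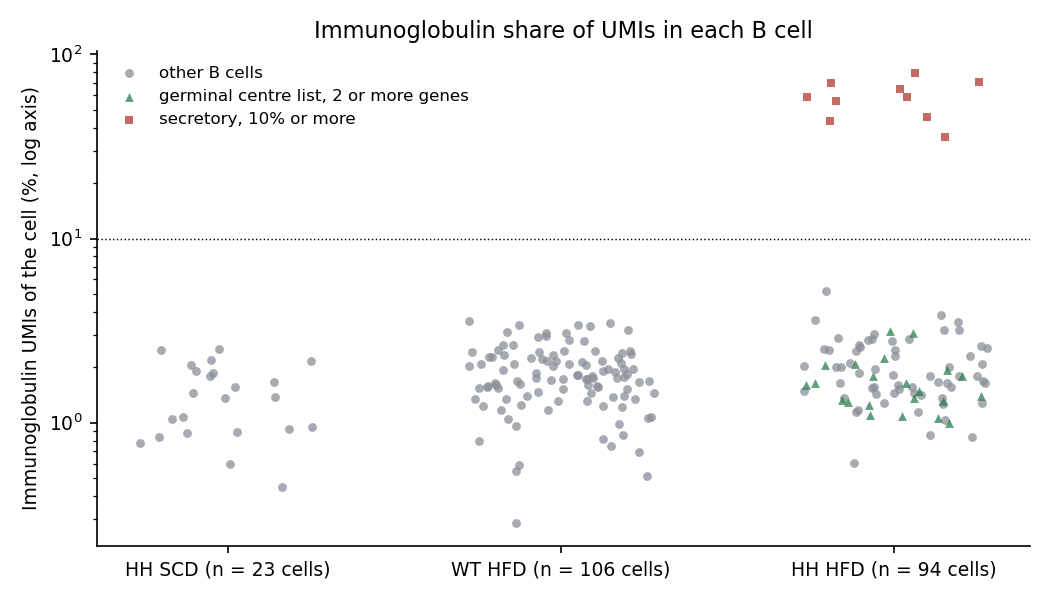
Immunoglobulin UMIs as a share of all UMIs of each B cell, in percent on a log axis, by library, with the dotted line at 10%. The 10 secretory cells of HH HFD sit between 35.4% and 79.0%, and every other point lies at or under 5.21%. WT SCD had no B cell.

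The secretory cells carried the genes of antibody export. Igkc, the kappa light chain constant region (chr6:70726435-70726966, + strand, GRCm38), had 5585 to 11963 UMIs in each, and Ighm, the IgM heavy chain constant region, had 1275 to 2188. Jchain, which joins IgM into pentamers (chr5:88519809-88527891, - strand), had 187 to 1042. Igkc, Ighm and Jchain count toward the immunoglobulin share that chose the cells, so their UMIs describe that choice. All 10 cells held Xbp1, the transcription factor of the secretory programme (4 to 26 UMIs), Mzb1, a chaperone of IgM assembly (14 to 184), and Derl3, of endoplasmic reticulum quality control (2 to 26). Prdm1, the repressor that sets plasma cell fate, was found in 7 of 10. Pax5, which holds B cell identity and is shut off in plasma cells, had no UMI in any of them, and Ms4a1 (CD20) had UMIs in 1. Their leading genes against the rest of the B cells of HH HFD were Slpi, Ly6c2, Cxcl10, Derl3 and Edem1.

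The secretory cells held IgM heavy chain RNA, and some held RNA of dividing cells. Switched heavy chain genes (Ighg1, Ighg2b, Ighg2c, Ighg3, Igha and Ighe) had 1 UMI in all 10 cells together. Mki67 or Top2a, which mark dividing cells, had UMIs in 6. Each cell had 2 to 7 Ighv and 3 to 31 Igkv UMIs, and 9 of the 10 also had Iglv UMIs, with a median of 15.5 and 125 in 1 cell, though Igkc was above the lambda constant genes in all 10. The leading Igkv gene was Igkv6-15 in 4 cells, Igkv12-41 in 3, Igkv1-110 in 2 and Igkv19-93 in 1. The pairs Ighv1-55 with Igkv12-41, Ighv1-55 with Igkv6-15, and Ighv9-2 with Igkv6-15 were each seen in 2 cells, and in 2 other cells no Ighv gene led. The leading Ighv gene of the other 8 cells rested on 2 to 5 UMIs. Cells from 1 pool of mice are not replicates, and the mice of the pool cannot be told apart. In 2 of the 10 cells other islet hormones gave 12.5% and 19.4% of UMIs, so these droplets also held endocrine RNA.

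The germinal centre list cells were described by genes outside the list. A list gene such as S1pr2, a receptor that keeps B cells in the germinal centre, was used to choose them, so its 24 UMIs in 13 of the 22 cells say nothing further. Mki67 or Top2a was found in 18 of the 22, against 5 of 62 other B cells of HH HFD, 5 of 106 in WT HFD and 3 of 23 in HH SCD. Jchain had 182 UMIs in 21 of the 22, against 8 UMIs in 3 of the 62 other B cells. The 7 follicular genes had 23 UMIs in these cells (117 CPM), against 2637 CPM in the other B cells of HH HFD. Klf2 was at 25.5 CPM and Ccr7 had no UMI, whereas Cxcr5, also on that list, was at 40.8 CPM against 59.6 in the other B cells. Besides list genes, the leading genes were Csrp2, H1fx, Klhl6, Hmces and Mcm7, of which Mcm7 is a subunit of the DNA replication helicase. Their median depth of 7375 UMIs was above the 2771 of the other B cells. The cell counts for Mki67 or Top2a and for Jchain above were not taken at equal depth. At equal depth, with each cell thinned to 1000 UMIs, 8 of 94 B cells of HH HFD (8.51%, 3.75 to 16.1) still had 2 or more list genes. In WT HFD it was 0 of 106, where 3 counts in place of 0 would be 2.83%.

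**Figure D3:**
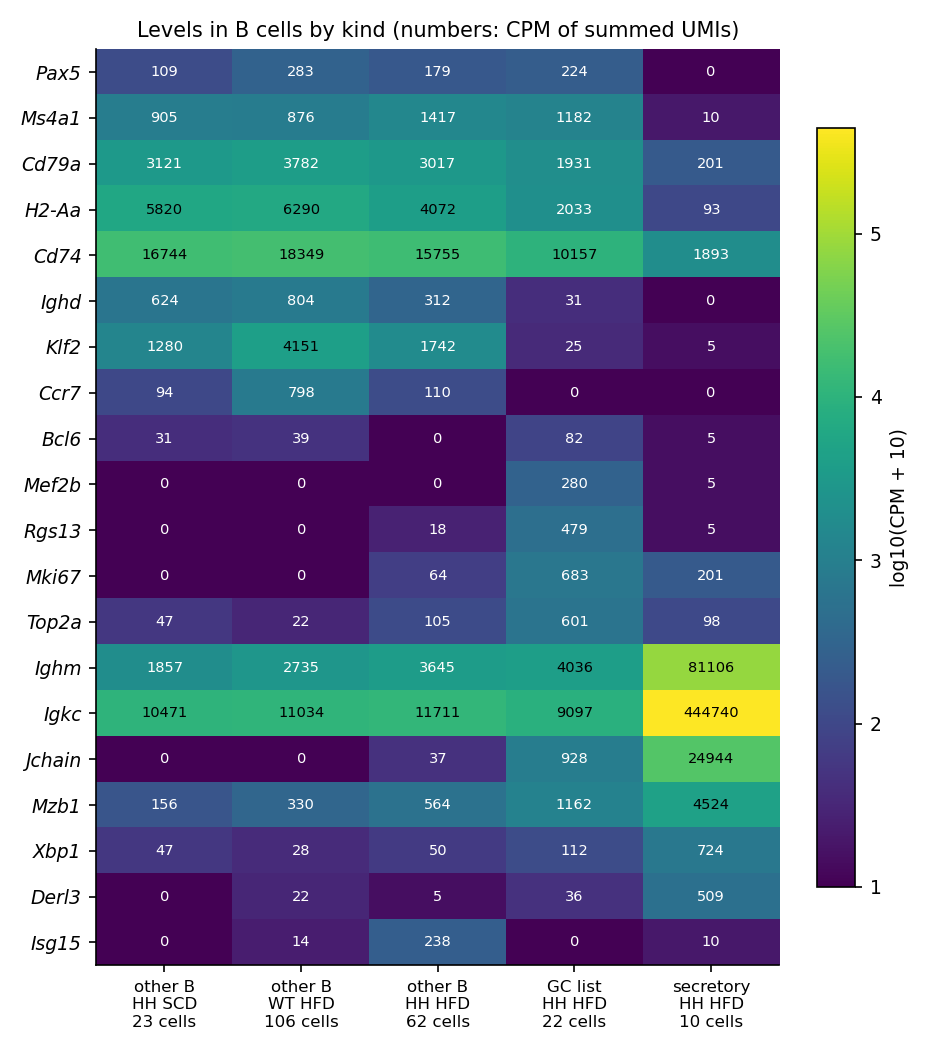
Levels of 20 genes in the B cells of each kind and library, as CPM of summed UMIs (printed in each box) with colour on a log10(CPM + 10) scale. Rgs13 is at 479 CPM in the germinal centre list cells and at or under 18.3 CPM in the other columns, and Jchain reaches 24944 CPM in the secretory cells and is at 0 in HH SCD and WT HFD. The kinds were chosen by genes that include Bcl6, Mef2b, Rgs13, Jchain and the immunoglobulin genes.

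Immunoglobulin RNA was also found in droplets of other cells. Igkc UMIs were found in 23.7% of the insulin cells of HH HFD, 7.57% in WT HFD, 1.21% in HH SCD and 1.13% in WT SCD, and after thinning to 1000 UMIs in 1.37%, 0.30%, 0.0467% and 0.136%. In B cells thinned alike the shares were 97.9% in HH HFD, 95.3% in WT HFD and 95.7% in HH SCD. Jchain was found in 1.62% of the insulin cells of HH HFD at a median of 24230 UMIs, against 36.2% of its B cells at 4200. The Jchain share of the germinal centre list cells was therefore above that of the droplet background of the same library.

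Most B cells were of IgM and kappa type. Lambda genes gave more UMIs than Igkc in 1 of 23 B cells of HH SCD (4.35%), 6 of 106 of WT HFD (5.66%, 2.11 to 11.9) and 9 of 94 of HH HFD (9.57%, 4.47 to 17.4), and these intervals overlap. Ighm was found in 21 of 23, 105 of 106 and 93 of 94 B cells. Switched heavy chain UMIs were rare, with 0 in HH SCD, 20 in WT HFD, and 28 for HH HFD. Of the 20 in WT HFD, 16 were Ighg2b UMIs. Marginal zone genes (Cr2, Cd1d1, S1pr3, Cd9, Dtx1) and B1 genes (Cd5, Spn, Bhlhe41, Zbtb32) gave 31.2 to 137 and 27.7 to 69.5 CPM in sum over all B cells. Among the other B cells of HFD, the B1 genes had 10 UMIs in WT (27.7 CPM) and 35 in HH (160 CPM), of which Bhlhe41 gave 8 and 24 and Cd5 0 and 1, and none of the 4 had enough UMIs to be compared alone. In the same cells the marginal zone genes were at a log2 ratio of 0.49 (-0.15 to 1.13).

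Levels were then compared between HH HFD and WT HFD with UMIs summed over the B cells of each library. Of 2355 genes with 50 or more UMIs over both, 202 were 2-fold or more higher in HH (8.58%) and 317 were 2-fold or more lower (13.5%). The median over all genes compared was -0.16 on the log2 scale. This split depended on the scaling: calls in the higher direction were 38.9% of all calls in CPM, 64.8% in CPM without immunoglobulin, hormone and mitochondrial genes, 53.2% with median-of-ratios factors, 54.3% with equal weight for each cell and 60.6% without the secretory cells. The median over all genes was 0.13 in CPM without these genes and 0.15 without the secretory cells. For this reason the 62 other B cells of HH HFD were also set against the 106 of WT HFD. Of 1476 genes, 57 were 2-fold or more higher in HH (3.86%) and 131 lower (8.88%), with a median of 0.05.

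Over all B cells, the 5 highest genes in HH HFD were Jchain, Ube2c, Eaf2, Gm43305 and Slpi. Jchain had 0 UMIs in WT and 5290 in 34 cells of HH, a log2 value of 10.01 against a floor of 3 counts (interval from 9.71). Ube2c, an enzyme of mitotic exit, had 1 and 169 UMIs (log2 6.62, interval 4.13 to 11.94). Eaf2, a transcription elongation factor, had 2 and 202 (5.88, 4.01 to 8.94), and Gm43305 had 1 and 92 (5.75, 3.23 to 11.06). Slpi, a secreted protease inhibitor, had 0 and 259 UMIs in 10 cells, 42.5% of them in 1 cell. Its log2 value was 5.65 against the same floor (interval from 5.35). Outside the secretory cells, HH HFD held 3 Slpi UMIs. Among the 5 lowest were Plvap, Sparc and Timp3, genes of vessel and matrix, beside Hspa1a and Hspa1b. Their WT UMIs (116, 70 and 55) lay in 2 or 3 cells, and 62.9% of the Plvap UMIs were in 1 cell. Over all B cells the 5 endothelial genes gave 366 UMIs in WT HFD, against 27 in HH HFD. The part of these droplets in other results was not tested.

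Heat shock genes were the other low end. Hspa1a, an inducible HSP70 chaperone (chr17:34969190-34972156, - strand), had 237 UMIs in 42 of 106 B cells of WT HFD, 4 UMIs in 4 of 94 of HH HFD and 1 UMI in HH SCD. Its log2 value HH over WT in HFD was -6.67 (-8.55 to -5.29), and Hspa1b had 212 and 4 UMIs (-6.51, -8.39 to -5.13). WT HFD was the highest of the 3 libraries with B cells. Of the 5 heat shock genes, 3 were 2-fold or more lower, whereas Hspa8, the constitutive family member, was at -0.14. Hspa1a was lower in HH HFD in every other cell class too, with log2 values of -1.20 in macrophages, -0.85 in endothelial cells, -1.75 in insulin cells and -2.16 in T cells.

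Immediate early genes were lower in the B cells of both HH libraries than in those of WT HFD, and WT SCD had no B cell to compare. These genes, such as Fos, Junb and Nr4a1, are transcribed within minutes of a stimulus. All 10 were 2-fold or more lower in HH HFD than in WT HFD, over all B cells and among the other B cells. In the other B cells their sum was 1592 CPM in HH SCD, 10338 in WT HFD, and 1724 for HH HFD, a log2 value of -2.58 in HFD (-2.74 to -2.43). Fos had 589 UMIs in 97 of 106 B cells of WT HFD and 118 in 38 of 94 of HH HFD, and 6 UMIs in HH SCD. Junb had 1150, 203 and 30 UMIs in the same order. In the macrophages of HFD the log2 values of Fos and Junb were -0.02 and 0.00, in endothelial cells -0.02 and -0.41, and in insulin cells -0.52 and -0.77. The SCD libraries of both genotypes were low in Fos in macrophages, at 372 CPM in WT and 457 in HH, against 3296 and 3260 in HFD. In T cells the immediate early sum was 2316 CPM in WT SCD (2 cells) and 3398 in HH SCD, against 7457 in WT HFD and 5536 in HH HFD. Diet, age and genotype can thus not be told apart in the HH SCD value. The B cell difference in HFD was thus larger than that of the other classes of the same libraries, but with 1 library a group its origin was not tested.

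Genes of recirculating follicular B cells were highest in WT HFD. Among the 7 genes of the list are Ighd, the IgD heavy chain, Fcer2a (CD23), the homing genes Ccr7, Cxcr5 and S1pr1, and Klf2, a transcription factor of lymphocyte recirculation. All 7 were 2-fold or more lower in HH HFD over all B cells, with a summed log2 of -2.79 (-2.93 to -2.66). Among the other B cells 6 of 6 genes compared were lower and 5 of them 2-fold or more, at -1.35 (-1.48 to -1.22). The sum was 2622 CPM in HH SCD and 6714 in WT HFD, against 2637 in the other B cells of HH HFD. Klf2 had a median of 2 UMIs in a B cell of HH SCD, 11.5 in WT HFD and 2 for HH HFD (3.5 in its other B cells). Ccr7 UMIs were found in 4 of 23, 83 of 106 and 17 of 94 cells. Both genes were higher in WT HFD than in either HH library. With no B cell in WT SCD, the HH SCD value cannot be assigned to genotype or diet: macrophage Klf2 was at 38.9 CPM in WT SCD and 12.5 in HH SCD, and at 636 and 528 in HFD. At 1000 UMIs a cell, 3 or more of the 7 genes were found in 30.4% of B cells of HH SCD (13.2 to 52.9), 50% of WT HFD (40.1 to 59.9) and 8.51% of HH HFD (3.75 to 16.1). The HH HFD share covers all 94 B cells. Without thinning, 35 of its 62 other B cells had 3 or more, 1 of 22 germinal centre list cells and 0 of 10 secretory cells. In WT HFD 99 of 106 cells had them, and in HH SCD 17 of 23. A share at equal depth is not given for the other B cells alone.

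Antigen presentation genes were abundant in every B cell library. Cd74, the invariant chain, had a median of 44 UMIs in a B cell of HH SCD, 59 in WT HFD and 56.5 for HH HFD. H2-Aa, whose promoter is shown above, had UMIs in 23 of 23, 106 of 106 and 90 of 94 B cells. Over all B cells 8 of 8 MHC class II genes were lower in HH HFD, 5 of them 2-fold or more, at a summed log2 of -1.13 (-1.16 to -1.09). Among the other B cells all 8 were still lower but none by 2-fold, at -0.34 (-0.38 to -0.29). The secretory cells had 2284 CPM of this list and the other B cells 27562, so the kinds of cell moved with the value. MHC class I genes were at -0.13 over all B cells, a sign that turned with the scaling, and at 0.42 (0.32 to 0.51) among the other B cells, where 3 of 8 were 2-fold or more higher.

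Interferon-stimulated genes were higher in the other B cells of HH HFD. Of 8 listed genes 4 had enough UMIs and all 4 were 2-fold or more higher than in WT HFD, and the sum was 2050 CPM in HH HFD, 399 in WT HFD and 484 in HH SCD (log2 2.36 in HFD, 2.09 to 2.64). Isg15, a ubiquitin-like antiviral protein, had 52 UMIs in 13 of 62 cells, 5 UMIs in 4 of 106 and none in HH SCD. Ifit3, an interferon-induced antiviral protein, had 38 UMIs in 11 cells of HH HFD and none in WT HFD or HH SCD. Bst2, a membrane protein that tethers virus particles, was more widely spread, with 79 UMIs in 30 of 62 cells against 28 in 15 of 106. In HFD the Isg15 value was -0.77 in macrophages, 0.24 in endothelial cells and -0.46 in insulin cells on the same scale, so this direction was not seen in macrophages or insulin cells. In T cells it was 0.82 (-1.10 to 2.25), from 61 and 4 UMIs. The germinal centre list cells had no Isg15 UMI.

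Other genes also set the other B cells of the HFD libraries apart, and they were named after their values had been seen. S100a6, a calcium-binding protein, had 10 UMIs in WT HFD and 262 in HH HFD (log2 5.44, 4.54 to 6.52), and Lgals1, galectin-1, had 6 and 55 (3.92, 2.71 to 5.43). Plac8, a cysteine-rich protein of immune cells, had 114 and 435 (2.66, 2.36 to 2.97). Of the 16 B cell identity genes 11 were lower, 5 of them 2-fold or more, and 5 were higher, none by 2-fold, with a median log2 of -0.51, against 0.05 over all genes compared, and a summed log2 of -0.10 (-0.19 to -0.01), with the 3 markers of the rule at -0.04. NF-kB target genes were at -1.25 (-1.51 to -1.01), with Cd83, an activation marker, at -1.55. Endocrine RNA in the other B cells was at -0.67 (-0.72 to -0.62), and its part in these values was not tested.

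**Figure D4:**
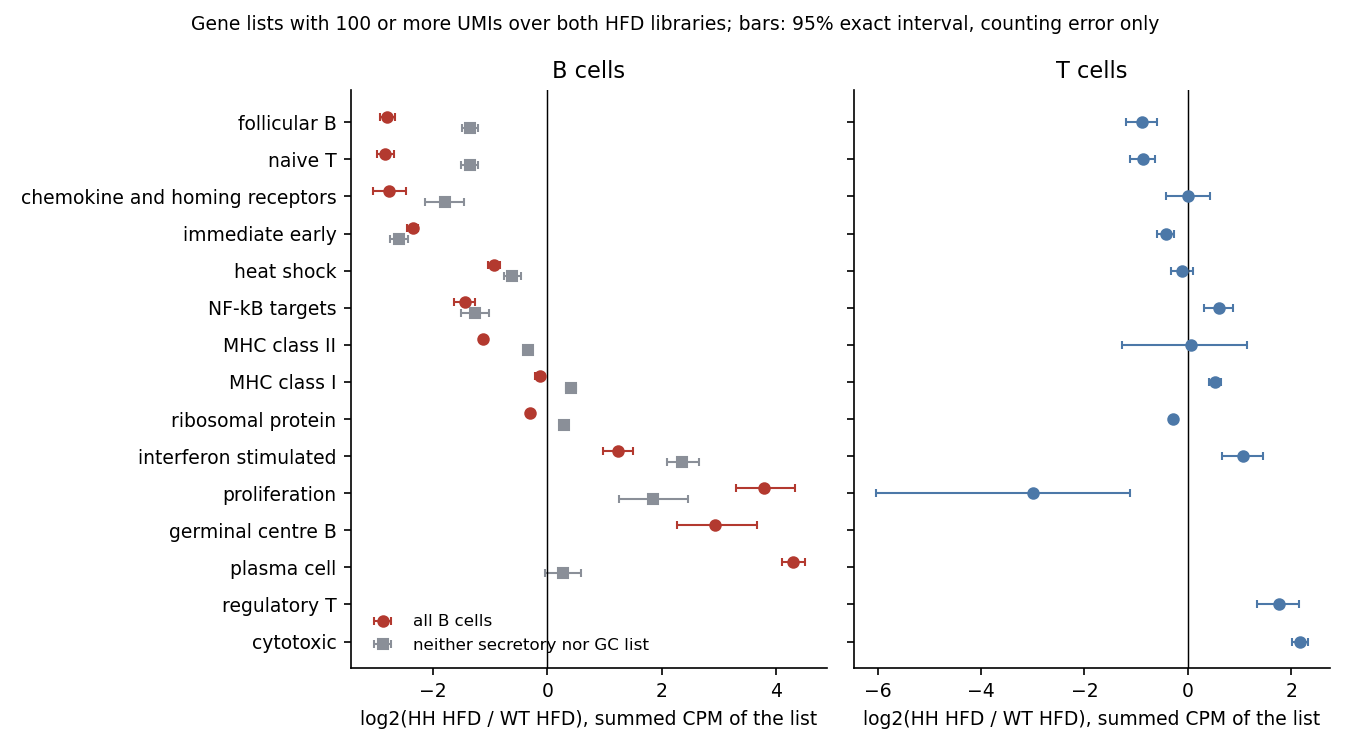
log2 ratio of HH HFD over WT HFD of the summed CPM of gene lists, for B cells (left, circles for all B cells, squares for those neither secretory nor of the germinal centre list) and T cells (right), with 95% exact intervals for counting error only. The immediate early and follicular lists lie at -2.58 and -1.35 and the interferon list at 2.36 in the other B cells, whereas in T cells the cytotoxic list lies at 2.17 and the naive list at -0.87.

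Nearly all T cells held RNA of the alpha-beta receptor. Receptor constant genes Trac, Trbc1 or Trbc2 were found in both T cells of WT SCD, 46 of 47 of HH SCD, all 316 of WT HFD and 24 of 25 of HH HFD. Trdc or a Tcrg constant gene, of the gamma-delta receptor, was found in 9 cells of HH SCD (19.1%), 15 of WT HFD (4.75%) and 5 of HH HFD (20%). Of these cells 8, 15 and 4 also held Trac, Trbc1 or Trbc2, and 1, 0 and 1 did not. At 1000 UMIs a cell the same shares were 12.8% (4.83 to 25.7), 2.85% (1.31 to 5.34) and 16.0% (4.54 to 36.1). In WT HFD 41 cells had Trav UMIs, from 24 different genes, and the most frequent, Trav16n, was found in 4 cells. Receptor usage was thus spread over many V genes there, while the few V gene UMIs of the other libraries allow no such statement.

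The CD8 coreceptor was frequent in WT HFD. Cd8a or Cd8b1 UMIs were found in 1 of 2 T cells of WT SCD, 8 of 47 of HH SCD, 170 of 316 of WT HFD and 7 of 25 of HH HFD, and Cd4 UMIs in 0, 9, 55 and 4. Of the 316 T cells of WT HFD, 92 had neither, which at this depth does not show that they lack both. Thinned to 1000 UMIs, the CD8 share was 10.6% in HH SCD (3.55 to 23.1), 39.2% in WT HFD (33.8 to 44.9) and 20% in HH HFD (6.83 to 40.7). Only the intervals of HH SCD and WT HFD do not overlap. Foxp3, the transcription factor of regulatory T cells, was found in 3, 15 and 2 cells.

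Naive T cell genes were most frequent in WT HFD. Among the 8 genes of the list are Ccr7 and S1pr1 for homing, the transcription factors Lef1, Tcf7 and Klf2, the survival receptor Il7r and Igfbp4. At 1000 UMIs a cell, 3 or more were found in 23.4% of T cells of HH SCD (12.3 to 38.0), 50.9% of WT HFD (45.3 to 56.6) and 20% of HH HFD (6.83 to 40.7), and in neither cell of WT SCD. Without thinning the shares were 61.7%, 94.9% and 48.0%. Klf2 had a median of 1 UMI in a T cell of HH SCD, 8 in WT HFD and 1 for HH HFD, and Igfbp4 was found in 6 of 47, 165 of 316 and 4 of 25 cells. WT HFD was thus the high library for this list in both lymphocyte classes, and Ccr7, S1pr1 and Klf2 also stand in the follicular B list.

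Cytotoxic genes were more frequent among the few T cells of HH HFD. Ccl5, a chemokine of memory and effector T cells (chr11:83525778-83530518, - strand), was found in 12 of 25 T cells there (48.0%, 27.8 to 68.7), 58 of 316 in WT HFD (18.4%), 8 of 47 in HH SCD (17.0%) and 1 of 2 in WT SCD. Thinning left the HH HFD share at 48.0% and moved WT HFD to 11.7% (8.38 to 15.8) and HH SCD to 14.9% (6.2 to 28.3). Macrophages of the same libraries also held Ccl5, in 20% to 64.2% of thinned cells, and insulin cells in at most 0.0934%. At least 2 of the 10 cytotoxic genes were found in 48.0% of thinned T cells of HH HFD, 12.7% of WT HFD and 12.8% of HH SCD. Gzmb, the serine protease granzyme B, had 16 UMIs in HH HFD, 15 of them in 1 cell, and 1 UMI each in WT HFD and HH SCD.

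**Figure D5:**
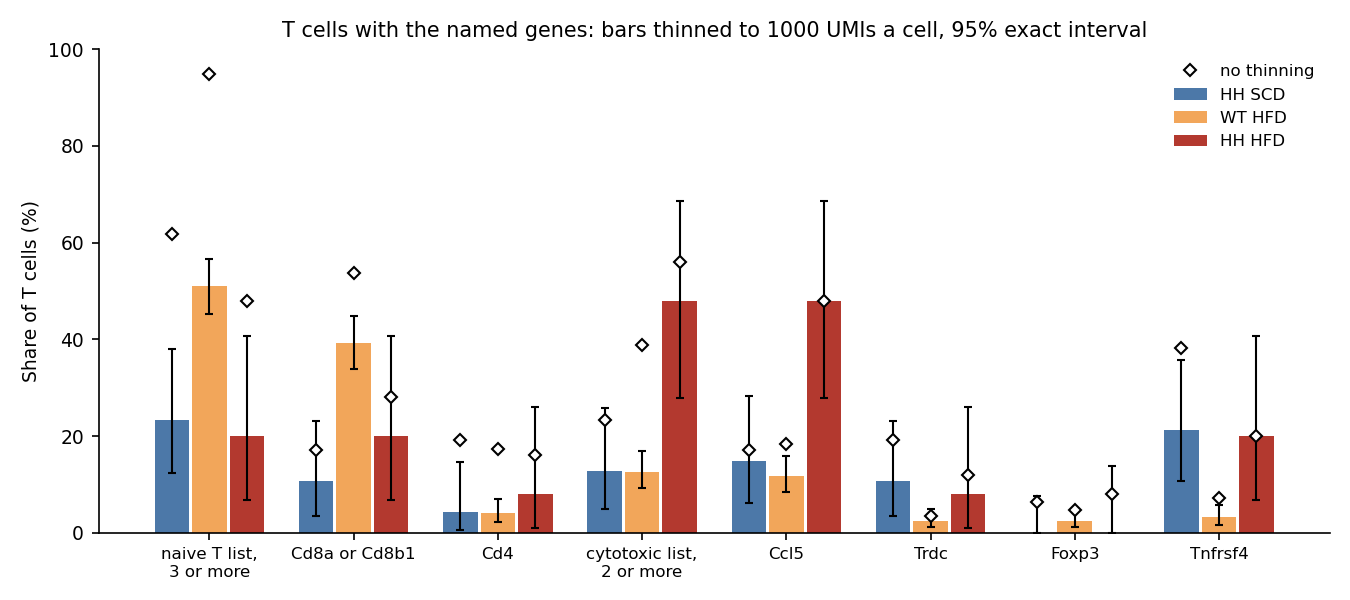
Share of T cells of HH SCD (47 cells), WT HFD (316) and HH HFD (25) that meet each rule, in percent, after thinning each cell to 1000 UMIs (bars, with 95% exact intervals for counting error only) and without thinning (diamonds). The naive list reached 50.9% in WT HFD and the cytotoxic list and Ccl5 48.0% in HH HFD. Tnfrsf4 was at 21.3% and 20% in the 2 HH libraries and at 3.16% in WT HFD.

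Between the HFD libraries, 359 of 3788 genes were 2-fold or more higher in the T cells of HH (9.48%) and 434 lower (11.5%), with a median of 0.13 on the log2 scale over all genes compared. With 3 counts in place of 0, a gene without UMIs in the shallow HH sum can stand as higher. Dcn, with 62 UMIs in WT HFD and none in HH HFD, was at 0.38. The counts of calls and the median thus depend in part on this floor. Many of the calls rest on few UMIs: of 636 genes for which 10 or more UMIs were expected in the smaller library, 44 were past 2-fold (6.92%). The split moved with the setting. Calls higher in HH were 45.3% of all calls in CPM and 34.6% with median-of-ratios factors. They were 52.7% with equal weight for each cell, 55.7% with 2000 or more UMIs a cell and 79.0% with a minimum of 20 UMIs a gene. The other alternatives lay between 34.1% and 46.0%. Of the 8 naive T genes 7 were lower and 5 were 2-fold or more lower, at a summed log2 of -0.87 (-1.12 to -0.63). All 6 cytotoxic genes with enough UMIs were higher and 4 of them 2-fold or more, at 2.17 (2.01 to 2.33). Of the 390 UMIs of this list in HH HFD, 253 were Ccl5 UMIs, 62.1% of them in 3 cells. Nkg7, a granule protein, was found in a like share of cells without thinning, 14 of 25 in HH HFD and 170 of 316 in WT HFD, and in 48.0% and 28.8% of thinned cells. All 4 regulatory T genes with enough UMIs (Ikzf2, Ctla4, Tnfrsf4, Tnfrsf18) were 2-fold or more higher, at 1.75 (1.34 to 2.15). Foxp3 was not among the genes with enough UMIs.

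The T cell genes with the largest differences included S100a4 and Maf, outside these lists, and Xcl1 and Ccl5, which belong to the cytotoxic list counted above. S100a4, a calcium-binding protein of memory T cells, had 56 UMIs in 16 cells of WT HFD and 24 in 6 cells of HH HFD (log2 3.53, 2.77 to 4.24), and 91 in 15 cells of HH SCD. Xcl1, a chemokine for cross-presenting dendritic cells, had 93 and 25 UMIs in the HFD libraries (2.85, 2.15 to 3.50), Maf, a transcription factor of effector T cells, 45 and 12 (2.84, 1.79 to 3.78), and Trdc 59 and 14 (2.67, 1.72 to 3.53), with 64.3% of its HH UMIs in 1 cell. Ccl5 had 1129 and 253 (2.59, 2.39 to 2.79), with 34.0% of the HH UMIs in 1 cell.

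At the low end, Rasgrp2, an activator of Rap1 in T cell adhesion, had 293 UMIs in 171 of 316 cells of WT HFD, 1 UMI in 25 cells of HH HFD (-3.45, -8.75 to -0.96) and 21 in 15 of 47 of HH SCD. Hspa1b had 465 UMIs in 157 cells and none in HH HFD, a log2 value of -2.53 with 3 counts in place of 0 (interval up to -2.22). Its place behind Rasgrp2 rests on this floor. Brd1, of a histone acetyltransferase complex, had 169 and 1 UMIs (-2.65, -7.96 to -0.15), and Imp3, of small ribosomal subunit assembly, 261 and 2 (-2.28, -5.33 to -0.41). Sst, the somatostatin gene of delta cells, had 2616 and 15 UMIs (-2.70), but 90.4% of the WT UMIs were in 1 droplet, and without droplets holding 5% or more of other hormones the value was 0.67. That droplet held both T cell and somatostatin RNA.

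The T cells of HH SCD shared some of these features. Tnfrsf4 (OX40), a costimulatory receptor of activated and regulatory T cells, was found in 18 of 47 cells there, 23 of 316 of WT HFD and 5 of 25 of HH HFD. Ikzf2 (Helios) was found in 18, 30 and 6 cells, and thinned shares were 21.3% (10.7 to 35.7), 3.48% (1.75 to 6.14) and 20% (6.83 to 40.7). Pdcd1, the checkpoint receptor PD-1, had UMIs in 12 of 47 cells of HH SCD, 4 of 316 of WT HFD and 1 of 25 of HH HFD. In both HH libraries the thinned shares of Tnfrsf4 and Ikzf2 lay above the interval of WT HFD. The 2 T cells of WT SCD were too few for any share, but they held 10 Ikzf2 and 4 Tnfrsf4 UMIs (1544 and 617 CPM, above both HH libraries), so a difference by genotype cannot be read from these genes. In 1 of them there were 96 Ccl5 UMIs.

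Stress and activation genes in T cells differed in part from those in B cells. Hspa1a or Hspa1b was found in 38.3% of thinned T cells of WT HFD (32.9 to 43.9), 6.38% of HH SCD and 8.0% of HH HFD, and in 50.9%, 0% and 4.26% of thinned B cells of the same libraries. Immediate early genes were at a summed log2 of -0.43 (-0.59 to -0.27) in HFD, 3 of 10 of them 2-fold or more lower. The heat shock list was at -0.11 (-0.32 to 0.10) in T cells and -0.93 in B cells, and Hsph1, a heat shock protein, at 1.16 (0.25 to 1.94) and -0.78. NF-kB targets were at 0.59 (0.30 to 0.87) in T cells and -1.44 (-1.62 to -1.27) in B cells. MHC class I genes were at 0.53 (0.41 to 0.65), 7 of 8 higher and 1 by 2-fold, with H2-K1 at 0.71. Interferon-stimulated genes were at 1.08 (0.67 to 1.46), with 1 of 4 past 2-fold. Dividing T cells were rare: Mki67 was found in 7 cells of WT HFD, with 64 of 114 UMIs in 1 cell, 1 of HH SCD and none of HH HFD.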

How the data were processed

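Single-cell RNA was measured in 4 libraries with the 10x Genomics 3' v3.1 kit. The authors aligned reads with Cell Ranger 6.0 (6.0.2 in the file headers) to mm10 and deposited filtered matrices of raw UMI counts per gene and barcode, with 32285 genes. The removal of free RNA and doublets described in the study's methods is not part of these matrices. UMIs were summed over the cells of a class and scaled to a class sum of 1000000 (CPM). With 1 library a group no test was run. Shares have exact Clopper-Pearson intervals, differences of shares combine the limits of both, and ratios exact conditional binomial intervals, at 95%, for counting error only, since UMIs of amplified libraries carry other errors too. A gene was compared with 50 or more UMIs over both libraries, a call was a 2-fold difference, and 3 counts replaced 0. Named genes were those of the lists, the 5 highest and 5 lowest ratios of each class whose interval excluded 0, and the 10 leading genes of each class. The members and lists were chosen with earlier results of these data known. Shares were compared after thinning each cell to 1000 UMIs. Macrophages had C1qa and C1qb, endothelial cells 2 or more of Plvap, Pecam1, Flt1, Kdr and Cdh5, and insulin cells 20% or more insulin UMIs. Secretory and germinal centre list cells were defined after seeing the data, as were the alternatives named as added. Trgc1 and Trgc2 were replaced by the Tcrg-C genes of the files. Scrublet marked 10 of 3554 cells of HH SCD and 2 of 5349 of HH HFD, under 0.5%, so it did not work there, and doublets were kept. Libraries shared 6 to 11 barcodes a pair, and 1 member had a barcode seen in another library. Total UMIs were 68011082 to 104810105 a library, and 21.4% to 36.8% of barcodes had 10% or more mitochondrial UMIs. Gene positions follow the GENCODE annotation of GRCm38, and promoters the RefSeq table. Interval code was checked on simulated data. Python 3.11.15, numpy 2.4.6, pandas 2.3.3, scipy 1.17.1, scanpy 1.11.5 and matplotlib 3.10.9 were used. The alternatives are given after the report. Values of some single list genes are not reported here.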

Additional observations from a re-analysis of the deposited data

Results flagged for a closer look

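Under the main rule the B cell share differed in direction between the diets: HH minus WT was 0.647 percentage points in SCD and -1.79 in HFD. The T cell share did so too, with 1.27 points in SCD and -10.1 in HFD. For B cells this did not hold in every setting. With insulin under 2% the B cell values were 0.281 in SCD and 0.828 in HFD. With both of the study's limits they were 0 and 0.248 (-0.169 to 0.592). With 1 library a group, neither contrast between SCD and HFD was tested. Age, library and diet differ together between these pairs, and the median insulin share of a B cell was highest in WT HFD, as given above, while that of a T cell was 2.52% in WT HFD and 2.48% in HH HFD.

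One droplet of HH HFD outside the marker rule held 53.6% immunoglobulin UMIs. It had 2546 UMIs of 512 genes, with 955 Igkc, 353 Ighm, 38 Jchain, 7 Mzb1 and 5 Xbp1 UMIs and none of the 3 B cell markers, so it was counted with neither class. Its values resemble those of the 10 secretory cells in kind, at a lower depth than any of them.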

How the results depend on the processing

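No paired analysis was possible because each group had 1 library. For B cells in SCD, HH minus WT was 0.281 points with insulin under 2%, 0 with both of the study's limits and 1.75 among cells with insulin under 5%. For B cells in HFD it was 0.828, 0.248 and -3.19 in that order, the first pair opposite in sign to the reported value, and -3.23 with no insulin limit. With either of the study's limits enough, a reading added after seeing the data, the B cell values were 0.204 in SCD and -0.877 in HFD, and the T cell value in SCD was 0.847. For T cells in SCD it was 0.647, 0.158 and 3.41, and 0.844 with 3 of 3 markers. For T cells in HFD it was -2.66, -1.92 and -21.8, -8.52 with 3 of 3 markers and -11.5 with no insulin limit. Genes past 2-fold numbered 258 in B cells with a minimum of 100 UMIs and 1252 with 20, against 519, and in T cells 301 and 2070, against 793. Of the 2070 in T cells, 1636 were higher in HH and 434 lower. The T cell count was 44 with 10 or more UMIs expected in the smaller library, a setting added after seeing the data. Without the secretory cells (also added) Slpi was -0.20, which sets 3 UMIs in HH against the floor of 3 counts for 0 in WT and gives no direction. In the same setting the immunoglobulin constant list was -0.0673, MHC class I 0.0692 and ribosomal protein genes 0.0909 on the log2 scale. Over all B cells these lists were at 3.40, -0.13 and -0.30, so each turned in sign. Among the other B cells ribosomal protein genes were at 0.30, with 77 of 80 genes higher in HH. In B cells MHC class I was 0.16 without immunoglobulin, hormone and mitochondrial genes, 0.0261 with median-of-ratios factors and 0.16 with equal cell weight. Endocrine genes were 0.0732 with median-of-ratios factors, against -0.0857, and ribosomal protein genes 0.0405 with equal cell weight. Sst in T cells was 0.66 without predicted doublets and 0.67 without droplets of other hormones (added). The cause was not tested. Of 263 alternative list values 184 moved by less than their interval, as did 102 of 110 for named genes and 29 of 52 for subset shares. Gene comparisons in SCD were not run, since WT SCD had 0 B and 2 T cells, nor with insulin under 2%, which left 6 B cells in WT HFD and 6 T cells in HH HFD. Among the HFD sums, the T cells of HH were the shallowest, at 60871 UMIs.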

Other observations

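Ighm RNA was found outside B cells in another ratio to light chain RNA than within them. In WT HFD the B cells held 987 Ighm and 3982 Igkc UMIs, and the T cells 312 and 22. Ighm UMIs were found in 165 of 316 T cells of WT HFD, 13 of 47 of HH SCD and 8 of 25 of HH HFD, and in 50% to 69.7% of macrophages. The insulin cells of WT HFD, at a median of 29921 UMIs, held Ighm in 4.42% and Igkc in 7.57%.

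Th2 and Th17 genes were near 0 in T cells. Il4 had 2 UMIs, in WT HFD, Il13 had none, and Il17a had 4, in HH SCD. Gata3, a transcription factor of Th2 and other T cells, was at 138 CPM in HH SCD, 56.2 in WT HFD, and 115 for HH HFD.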
